A study of Mus musculus with 2 samples.

Results

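The nuclear receptor genes described here encode 36 transcription factors, and all 36 symbols matched 1 gene each among the 55536 annotated genes of the series. They were taken as a family by symbol. No measured value was a criterion, but earlier results of these data were known when the family was chosen. They cover the receptors for thyroid hormone, retinoic acid, oxysterols, fatty acids, bile acids, vitamin D and steroids, their shared partners, the retinoid X receptors, and orphan receptors with no established hormone. RNA was measured in 1 group of 2 libraries, both from bone marrow-derived macrophages of C57BL/6J mice after 75 min with 100 ng/ml lipid A, the lipopolysaccharide moiety that activates TLR4. The RNA came from the chromatin fraction, which is rich in transcripts still being made or spliced, and ribosomal RNA was depleted from it. The RNA input was 250 ng for replicate 1 and 500 ng for replicate 2. Both carry 1 donor label, and separate mice are not stated, so an SD may describe cultures and not animals. No unstimulated cells were analysed here, and every value below is a level at this 1 time point.

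A nuclear receptor typically joins a DNA-binding domain with zinc fingers to a domain that binds a small lipophilic ligand. Without an agonist many of them hold corepressor complexes on target genes, and an agonist exchanges these for coactivators. In macrophages the liver X receptors (LXRs) act on cholesterol export, the peroxisome proliferator-activated receptors (PPARs) on fatty acid handling, and the glucocorticoid receptor on the restraint of inflammatory genes.

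The first zinc finger of these proteins holds the P-box, a few residues that read the bases of a receptor's binding element. The codons for this stretch were found in annotated coding transcripts of all 36 members, and the encoded P-box residues divided them into 7 classes. The stretch is given for 10 members, to let the classes be compared base by base. It runs over 8 codons (24 bases, 5′ to 3′ on the coding strand, GENCODE M21 transcripts), and capitals mark the 3 codons of the P-box positions.
Nr1h2: tgtGAAGGCtgcaaaGGCttcttc
Nr1h3: tgcGAGGGCtgcaagGGAttcttc
Nr1d2: tgtGAAGGCtgtaagGGTttcttt
Nr2c2: tgtGAAGGTtgcaaaGGTttcttc
Nr2f6: tgcGAGGGCtgcaagAGTttcttc
Nr3c2: tgcGGCAGCtgcaaaGTCttcttc
Esr1: tgcGAAGGCtgcaagGCTttcttt
Esrra: tgtGAGGCCtgcaaaGCCttcttc
Hnf4a: tgtGACGGCtgcaagGGGttcttc
Nr5a2: tgcGAAAGCtgcaagGGTtttttt

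The largest class held 24 members, from the thyroid hormone and retinoic acid receptors to the LXRs, PPARs, REV-ERBs and retinoid X receptors, and is shown by Nr1h2, Nr1h3, Nr1d2 and Nr2c2. Of these 24, 11 were expressed, by a threshold of 1 TPM (a level relative to all transcripts of the library, per unit of length) in both replicates. The class summed to 94.8 TPM in replicate 1 and 142 TPM in replicate 2. The second class in summed level held the receptors for glucocorticoids, mineralocorticoids and progesterone, shown by Nr3c2, with 32.2 TPM in replicate 1 and 59.0 TPM in replicate 2. The estrogen related receptors Esrra and Esrrb shared a class of their own, as did the estrogen receptors Esr1 and Esr2. The COUP transcription factor genes Nr2f1, Nr2f2 and Nr2f6 shared another, while Hnf4a and Nr5a2 were each alone. Within the largest class the 3 P-box codons differed between genes in the last base of a codon only, as the lines for Nr1h2 and Nr1h3 show.

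In all, 15 of the 36 receptors were expressed, against 7633 of 22028 protein-coding genes (34.7%), so the receptors' share was not far from that of the genome's coding genes. A further 11 were listed at 0 TPM in both replicates. The median over the 36 receptors was 0.873 ± 0.385 TPM, and over all protein-coding genes 0.190 ± 0.0636 TPM (SD, n = 2 replicates). In the authors' second quantification, described below, these medians were 1.28 and 1.10 TPM, so the gap depends on the quantification. Among expressed genes only, the median was 6.03 TPM for the 15 receptors and 8.18 TPM for the 7633 coding genes. The receptors summed to 148 TPM in replicate 1 and 228 TPM in replicate 2, and 5 of them, Nr3c1, Nr1h2, Nr1d2, Esrra and Nr1h3, held 75.4% and 74.6% of these sums.

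**Figure D1:**
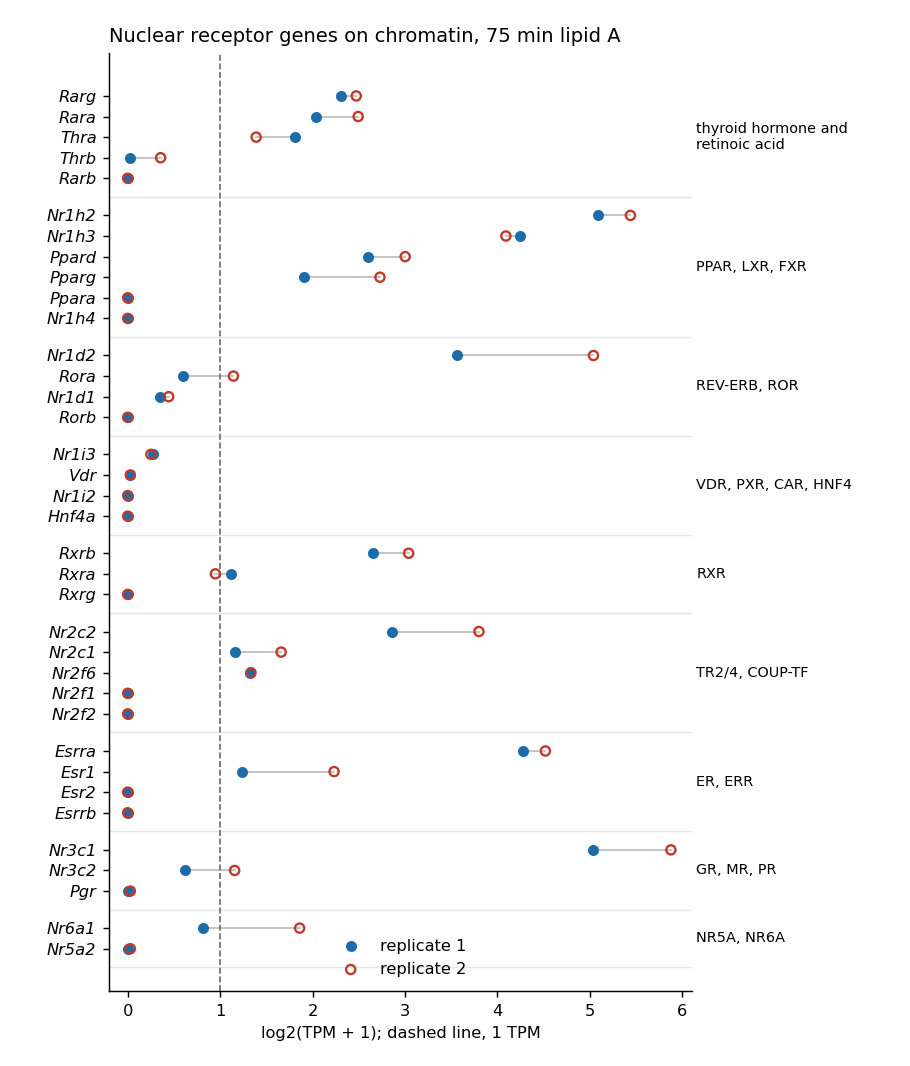
Level of each of the 36 nuclear receptor genes on the log2(TPM + 1) scale, grouped by receptor family; filled points are replicate 1, open points replicate 2, and the dashed line marks 1 TPM. Nr3c1 and Nr1h2 lay farthest to the right and 11 receptors lay at 0 in both replicates.

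The libraries held 21453617 estimated counts on annotated genes in replicate 1 and 29638814 in replicate 2. The limit that a count of 0 allows, 3 counts, was 0.140 CPM (counts scaled to the library total) in replicate 1 and 0.101 CPM in replicate 2. Genes of the ribosomal DNA locus took 41.6% of counts in replicate 1 and 12.7% in replicate 2, and protein-coding genes summed to 139909 and 249774 TPM. TPM was higher in replicate 2 for 93.7% of expressed protein-coding genes, and a receptor's SD holds this shift between the libraries. Of 12 macrophage markers, 11 were expressed, with a summed level of 619 TPM in replicate 1 and 1102 TPM in replicate 2. None of the markers of hepatocytes (8 genes), stromal cells (7), adipocytes (5), neurons (6), lymphocytes (8), granulocytes and mast cells (7), dendritic cells (7) or epithelium (5) was expressed in the first of the authors' quantifications, which is used unless stated. The nearest was the dendritic cell marker Zbtb46, at 0.800 TPM in replicate 1 and 1.45 TPM in replicate 2. In the second, made from the reads against a transcript index and called the second quantification, Zbtb46 (1.81 and 4.11 TPM), the hepatocyte marker Cyp2e1 (1.3 and 2.24 TPM) and the lymphocyte marker Ms4a1 (1.03 and 1.87 TPM) passed the threshold. Adipoq and 7 of the 8 hepatocyte markers, Alb among them, had 0 counts in both replicates of the first. Stromal markers summed to 0.740 TPM in replicate 1 and 1.83 TPM in replicate 2, and dendritic cell markers to 1.44 and 2.71 TPM.

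The oxysterol receptors were among the highest of the family. Nr1h2 (LXR beta; chromosome 7, 44549616 to 44553951, minus strand), which is expressed in many tissues, stood at 33.0 TPM in replicate 1 and 42.4 TPM in replicate 2. Nr1h3 (LXR alpha; chromosome 2, 91184061 to 91202834, minus strand), the form enriched in liver and macrophages, stood at 17.9 and 16.0 TPM. The ranges of the LXR genes did not overlap, with Nr1h2 above Nr1h3 in both replicates. The bile acid receptor gene Nr1h4, a liver and gut gene, was listed at 0.

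Of the PPAR genes, Ppard (chromosome 17, 28232700 to 28301474, plus strand) was at 5.04 TPM in replicate 1 and 7.01 TPM in replicate 2. Pparg (chromosome 6, 115360951 to 115490399, plus strand), a regulator of fat cell and macrophage lipid genes, was at 2.74 and 5.63 TPM, a range that overlapped that of Ppard. Within each replicate Ppard was above Pparg. Ppara, the form that drives fatty acid oxidation in liver, had 0 counts in both replicates. In a bulk sample, fewer cells with a transcript and less RNA per cell cannot be told apart.

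The retinoid X receptors are the obligate partners of LXRs, PPARs, retinoic acid receptors and several others. Rxrb (chromosome 17, 34031812 to 34038399, plus strand) had 5.31 TPM in replicate 1 and 7.22 TPM in replicate 2. Rxra (chromosome 2, 27676440 to 27762957, plus strand) had 1.17 and 0.930 TPM, astride the threshold of 1 TPM, and Rxrg had 0 counts. On chromatin the level of Rxrb was thus above that of Rxra in both replicates, with ranges that did not overlap.

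All of the retinoic acid receptor genes except Rarb were expressed. Rarg (chromosome 15, 102234938 to 102257517, minus strand) was at 3.94 TPM in replicate 1 and 4.55 TPM in replicate 2, and Rara (chromosome 11, 98927818 to 98974942, plus strand) at 3.09 and 4.63 TPM. These genes did not differ beyond the spread of the replicates. Rarb, itself a target of retinoic acid, had 0 counts. Of the thyroid hormone receptor genes, Thra (chromosome 11, 98740638 to 98769006, plus strand) had 2.51 TPM in replicate 1 and 1.62 TPM in replicate 2. Thrb rested on 4 and 3 counts, with 0.0200 and 0.280 TPM, and these counts fell on transcripts of different length in the replicates.

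The REV-ERB receptors are repressors of the circadian clock, and the ROR receptors act on the same DNA elements as activators. Nr1d2 (REV-ERB beta; chromosome 14, 18204054 to 18239127, minus strand) was at 10.8 TPM in replicate 1 and 31.9 TPM in replicate 2. Its relative Nr1d1 (REV-ERB alpha; chromosome 11, 98767932 to 98775333, minus strand) was at 0.270 and 0.360 TPM, so Nr1d2 was the higher by far in each replicate. Rora (chromosome 9, 68653786 to 69388246, plus strand) was at 0.510 TPM in replicate 1 and 1.21 TPM in replicate 2, and Rorb had 0 counts.

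The glucocorticoid receptor gene Nr3c1 (chromosome 18, 39410545 to 39519421, minus strand) was the highest receptor by mean, with 31.7 TPM in replicate 1 and 57.7 TPM in replicate 2. Its range overlapped that of Nr1h2, so the order of these top genes is not settled, and Nr1h2 was the higher of them in replicate 1. Nr3c2, the mineralocorticoid receptor gene (chromosome 8, 76899442 to 77245012, plus strand), was at 0.540 and 1.23 TPM. Pgr, the progesterone receptor gene, had 0 counts in replicate 1 and 2 counts in replicate 2.

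Esrra (chromosome 19, 6910977 to 6921813, minus strand), an orphan receptor of mitochondrial and oxidative metabolism genes, stood at 18.3 TPM in replicate 1 and 21.9 TPM in replicate 2. Esr1, the estrogen receptor alpha gene (chromosome 10, 4611593 to 5005614, plus strand), stood at 1.36 and 3.70 TPM. Esr2 and Esrrb were listed at 0 in both.

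Of the testicular orphan receptor, COUP, NR5A and NR6A genes, Nr2c2 (a testicular orphan receptor gene; chromosome 6, 92091390 to 92174294, plus strand) was highest, with 6.26 TPM in replicate 1 and 12.9 TPM in replicate 2. Its paralog Nr2c1 (chromosome 10, 94148023 to 94197211, plus strand) had 1.24 and 2.16 TPM. Nr2f6 (chromosome 8, 71374123 to 71381960, minus strand), a COUP-type repressor, had 1.51 TPM in replicate 1 and 1.52 TPM in replicate 2, while Nr2f1 and Nr2f2 had 0 counts. Nr6a1, the germ cell nuclear factor gene (chromosome 2, 38723370 to 38927688, minus strand), had 0.760 and 2.63 TPM. Nr5a2, a liver and ovary receptor gene, had 0 counts in replicate 1 and 1 count in replicate 2.

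No receptor of the vitamin D, xenobiotic and HNF4 branch reached 1 TPM. Nr1i3 (constitutive androstane receptor; chromosome 1, 171213970 to 171220701, plus strand) was the highest of them at 0.210 TPM in replicate 1 and 0.190 TPM in replicate 2. Vdr, the vitamin D receptor gene, had 2 counts in each replicate (0.0200 TPM), and Nr1i2 and Hnf4a had 0. A count of 0 allows a level of up to 0.140 CPM in replicate 1 and 0.101 CPM in replicate 2, by counting error only.

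Several receptors share exon bases with a gene on the opposite strand, and no source used here states whether reads were counted by strand, so their reads cannot be told apart from the partner's. The 74.9% of Nr1i3 exon bases that lie in exons of Tomm40l are the extreme case, and Tomm40l was at 1.87 TPM in replicate 1 and 2.50 TPM in replicate 2. Nr2f6 shares 54.4% of its exon bases with Ocel1, Rarb 34.1% with Top2b, and Nr2c2 30.7% with Mrps25. The adjoining genes Thra and Nr1d1 share 263 exon bases at their 3′ ends. Esrra shares 1.66% of its exon bases with Trmt112.

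The replicates were then compared on counts scaled by the trimmed mean of M values (TMM), which corrects for a few genes that take a large part of a library. With 1 library on each side there is no test, and the 95% intervals (exact, Clopper-Pearson) cover counting error only. Of the 21 receptors with a summed count of 20 or more, 0 were 2-fold or more higher in replicate 2, against 5.74% of 10970 protein-coding genes with the same minimum. The 3 receptors that were 2-fold or more lower in replicate 2 were Thra, Nr2f6 and Nr1i3, against 4.38% of those genes. The ratio of replicate 2 over replicate 1 was 0.396 for Thra (interval 0.290 to 0.528), 0.445 for Nr2f6 (0.268 to 0.717) and 0.479 for Nr1i3 (0.236 to 1.02). These calls rest on the scaling and the minimum: on library size alone 2 receptors were higher and 0 lower, and at a summed count of 100 or more 1 was lower. All 3 share exon bases with a gene on the opposite strand, which for Thra are 5.70% of its exon bases. So do 5 of the other receptors compared, of which 3 (Rora, Nr2c2 and Nr3c2) had ratios above 1. The share of all protein-coding genes with such an overlap was not counted, and a link between overlap and ratio was not tested. RNA input and the share of the ribosomal DNA locus differ between the same libraries and cannot be told apart from the replicate. Rxra lay just outside the fold limit at 0.503 (0.393 to 0.641). The highest ratios were those of Nr1d2, at 1.71 (1.56 to 1.87), and Rora, at 1.65 (1.29 to 2.13).

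The receptors' median log2 ratio was -0.39, with quartiles of -0.62 and 0.14, and that of the protein-coding genes was -0.03, with quartiles of -0.43 and 0.38. Without TMM, on library size alone, the receptors' median was 0.17. In TPM, 13 of the 15 expressed receptors were higher in replicate 2, the exceptions being Nr1h3 and Thra, and their median TPM ratio was 1.39, against 1.73 for expressed protein-coding genes. Long receptor genes tended to have the higher scaled ratios. Rora spans 735 kb, Esr1 394 kb, Nr3c2 346 kb and Nr6a1 204 kb, and all had ratios above 1 in replicate 2, while Nr1h2 (4.34 kb), Rxrb (6.59 kb), Nr1i3 (6.73 kb), Nr1d1 (7.40 kb), Nr2f6 (7.84 kb) and Esrra (10.8 kb) had ratios below 1. Over the 21 receptors, Spearman's rho between gene span and log2 ratio was 0.70, and over the 10970 protein-coding genes it was 0.03. These points share the same pair of libraries, and the relation is a description across genes that are not replicates.

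**Figure D2:**
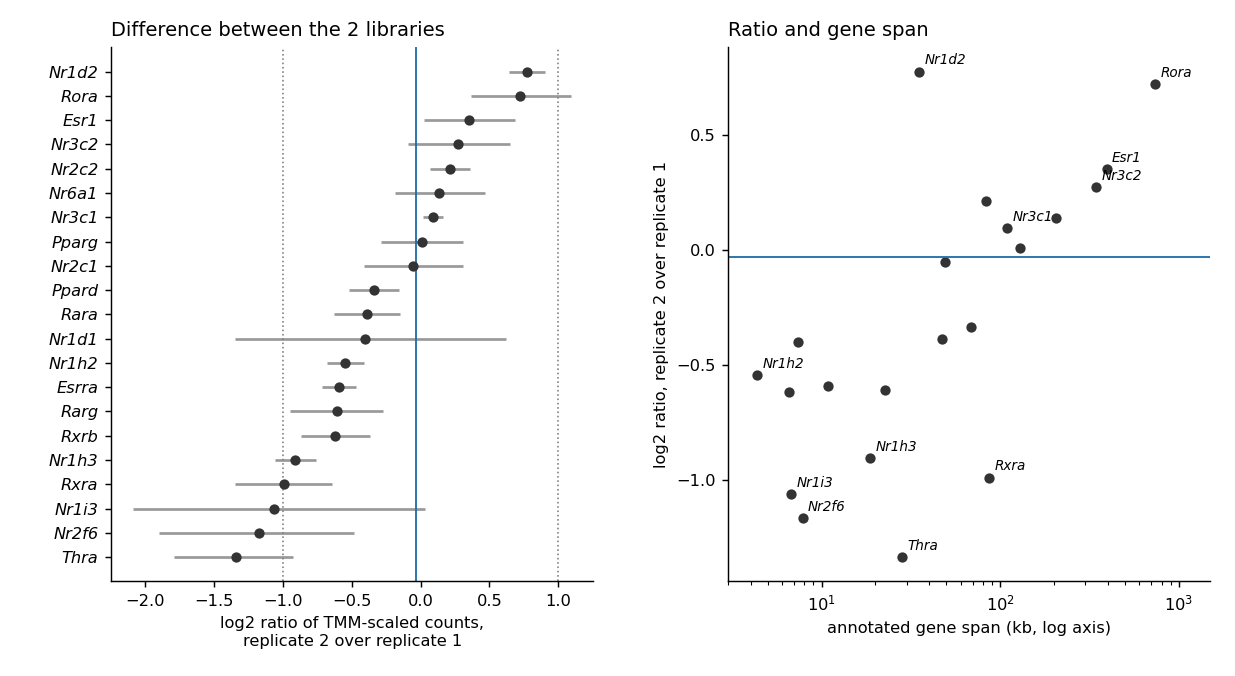
Left, log2 ratio of TMM-scaled counts (replicate 2 over replicate 1) for the 21 receptors with 20 counts or more, with 95% counting intervals; dotted lines mark a fold of 2 and the blue line the protein-coding median. Right, the same ratio against annotated gene span (kb, log axis): the long genes Rora, Esr1 and Nr3c2 lay above the blue line and Thra, Nr2f6, Nr1i3 and Rxra lowest.

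Transcript models were examined next, since RNA on chromatin includes unspliced forms. The retained intron share is the part of a gene's TPM, in percent, that fell on models annotated as retained intron, and 9 of the 15 expressed receptors had such a model annotated. Its median over these 9 was 45.0%, with quartiles of 38.6% and 46.9%. The median over 5233 expressed protein-coding genes with such a model was 45.9%, with quartiles of 29.4% and 62.5%, so the receptors lay within the usual range. On expected counts in place of TPM the receptors' median was 31.3%.

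By TPM, Nr1d2 had the highest share, 69.6% in replicate 1 and 62.6% in replicate 2. By expected counts, which are not divided by length, its share was 30.1% and 22.9%, and the highest by mean were those of Esrra (48.1% and 61.3%) and Nr1h2 (52.3% and 54.6%). In TPM the leading Nr1d2 transcript was the retained intron model Nr1d2-203 (687 bases), with 4.58 and 13.4 TPM, ahead of the full coding model Nr1d2-201 (4663 bases), with 3.29 and 11.7 TPM. By the mean of the replicates Nr1h3 followed in TPM, with a share of 55.5% in replicate 1 and 50.4% in replicate 2. The retained intron model Nr1h3-208 carried 3.86 and 4.78 TPM, and the coding model Nr1h3-201 carried 3.03 and 4.32 TPM.

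Esrra had a share of 38.5% in replicate 1 and 51.4% in replicate 2. Its retained intron model Esrra-202 stood at 7.06 and 11.3 TPM, and the coding model Esrra-201 at 7.80 and 7.27 TPM, so which of them led differed between the replicates. Nr1h2 had a share of 37.5% in replicate 1 and 42.8% in replicate 2. Its leading model was the short coding fragment Nr1h2-212 (544 bases), with 12.2 and 14.7 TPM, ahead of the retained intron model Nr1h2-205, with 5.23 and 6.60 TPM. Rxrb, led by the coding model Rxrb-202 at 1.59 and 2.53 TPM, had a share of 43.8% and 49.0%, and Ppard, led by the coding model Ppard-201 at 2.02 and 3.90 TPM, 51.8% and 42.0%. Nr1h2-212 led in the second quantification too, but other models led the rest there. These were Esrra-203 (7.11 and 12.2 TPM, at 0 in the first), the processed transcript Ppard-204 (4.54 and 5.56 TPM), and Rxrb-210 in replicate 1 and Rxrb-206 in replicate 2. Mean retained intron shares there were 25.1% for Esrra, 28.9% for Ppard, 44.9% for Nr1h2 and 62.7% for Rxrb.

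Nr3c1, Rara, Nr2c1 and Rxra had all of their TPM on coding models. For Nr3c1 and Nr2c1 the annotation fixed this, since all 9 models of Nr3c1 and all 3 of Nr2c1 are coding. For Nr3c1, Nr3c1-208 led in TPM with 13.0 TPM in replicate 1 and 31.0 TPM in replicate 2. Nr3c1-202 followed by mean with 8.15 and 6.46 TPM, and Nr3c1-203, with 3.78 and 9.06 TPM, was above it in replicate 2. By expected counts Nr3c1-203 led, with 695 and 1790 counts against 637 and 1635 for Nr3c1-208. Rara-204 carried 1.34 and 2.64 TPM and Rara-202 carried 1.04 and 1.45 TPM. Rxra-201 carried 0.860 and 0.930 TPM, and Nr2c1-203 carried 0.550 and 1.16 TPM. In the second quantification, where Nr3c1 and Nr2c1 are fixed at 100% in the same way, Rxra had 80.6% of its TPM on coding models and Rara 47.6%. The remainder of Rara lay there on the processed transcript Rara-205, at 3.26 TPM in replicate 1 and 7.32 TPM in replicate 2.

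Of the Pparg models, Pparg-202, which starts at the 5′ end of the gene, led with 1.84 TPM in replicate 1 and 3.49 TPM in replicate 2. Pparg-204 was listed at 0 in replicate 1 and stood at 1.21 TPM in replicate 2. In the second quantification Pparg-202 had 1.58 and 3.16 TPM, and the retained intron model Pparg-203, at 0 in the first, had 1.24 and 4.52 TPM. The mean retained intron share of Pparg was 8.41% in the first and 35.0% in the second. Esr1 had 22.6% of its TPM on coding models in replicate 1 and 18.3% in replicate 2. Its leading models were Esr1-210, a processed transcript at 0.260 and 1.02 TPM, and Esr1-209, a retained intron model at 0.450 and 0.790 TPM. In the second quantification the processed transcript Esr1-206 led Esr1, with 0.897 and 3.12 TPM. Nr2f6 had 39.7% and 28.8% on coding models, and its leading model in TPM was the processed transcript Nr2f6-208 (427 bases), at 0.910 and 0.740 TPM. That lead rests on its short length, with 5.05 and 4.57 expected counts. The coding model Nr2f6-201 (2218 bases) had 31.7 and 27.5 counts, and 0.540 and 0.440 TPM.

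For Thra, which encodes a hormone-binding and a non-binding form by alternative splicing, the coding models Thra-202 (0.620 TPM in replicate 1 and 0.710 TPM in replicate 2) and Thra-201 (0.550 and 0.190 TPM) stood beside the processed transcript Thra-207 (0.470 and 0.630 TPM). Nr2c2 divided its TPM over Nr2c2-201 (1.09 and 3.24 TPM), Nr2c2-203 (0.840 and 3.39 TPM) and retained intron models, which held 25.7% in replicate 1 and 35.0% in replicate 2. Rarg-202 carried 1.58 and 1.95 TPM, Rora-201 carried 0.190 and 0.720 TPM, and Nr6a1-202 carried 0.560 and 1.12 TPM. Nr3c2 had all of its TPM on Nr3c2-203 in this table. In the second quantification Nr3c2-204 led, with 0.278 TPM in replicate 1 and 1.10 TPM in replicate 2, against 0.158 and 0.0861 TPM for Nr3c2-203. Nr2c1-202 (1.92 and 4.23 TPM), Nr2c2-202 (2.56 and 3.72 TPM), Nr6a1-203 (1.62 and 4.65 TPM) and Rora-202 (0.392 and 0.925 TPM) led their genes there. Rarg was led there by Rarg-204 in replicate 1 and Rarg-203 in replicate 2, and Thra by Thra-206 and then Thra-202.

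**Figure D3:**
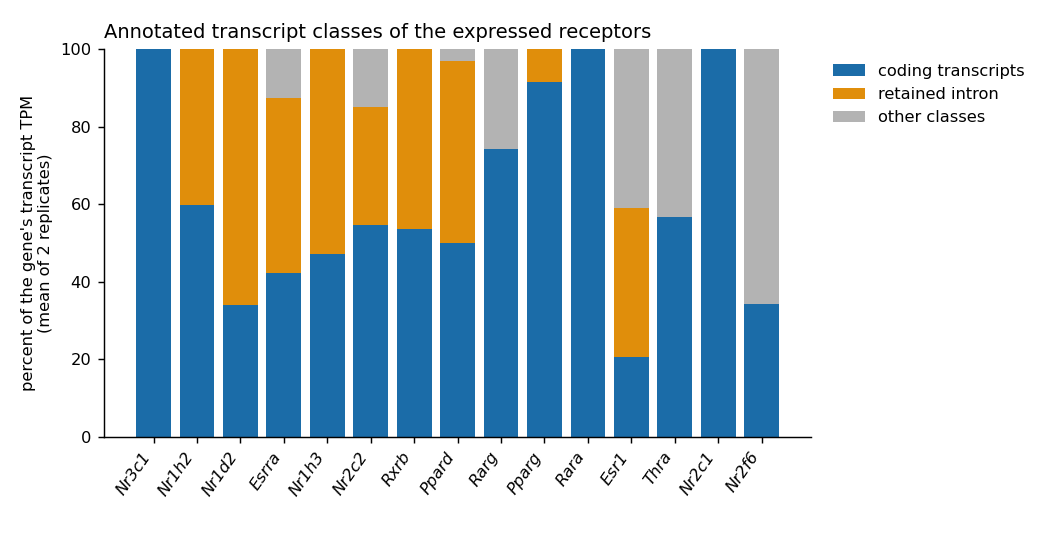
Percent of transcript TPM (mean of the replicates) on coding models, retained intron models and all other annotated classes, for the 15 expressed receptors in order of mean level. Nr1d2 and Nr1h3 had the highest mean retained intron shares in TPM. Nr3c1, Rara and Nr2c1 had TPM on coding models only, which the annotation fixed for Nr3c1 and Nr2c1.

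The authors' second quantification gave 16 expressed receptors, against 44.9% of protein-coding genes. Of these, 14 were also expressed in the first, 2 (Rxra and Nr6a1) were expressed in the second only, and Nr2f6 in the first only. The same 5 receptors were highest in both tables. Nr6a1 differed most by ratio among those expressed, with 4.55 TPM in replicate 1 and 10.9 TPM in replicate 2 of the second table, against 0.760 and 2.63 TPM in the first. Pparg stood at 5.15 and 15.3 TPM and Esrra at 27.5 and 36.4 TPM in the second table, above their values in the first. Of the receptors at 0 in the first table, Rorb had 0.793 and 1.95 TPM in the second, Nr2f2 had 0.810 and 1.55 TPM, and Nr2f1 had 0.580 and 0.941 TPM. Over all protein-coding genes listed at 0 in the first table, 11.8% had 0.5 TPM or more in both replicates of the second. Outside the 36, the estrogen related receptor gene Esrrg was listed at 0 in the first table and at 17.96 and 57.8 TPM in the second, and this gene was chosen after its values were seen. A level near 0 for these genes thus depends on the table.

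**Figure D4:**
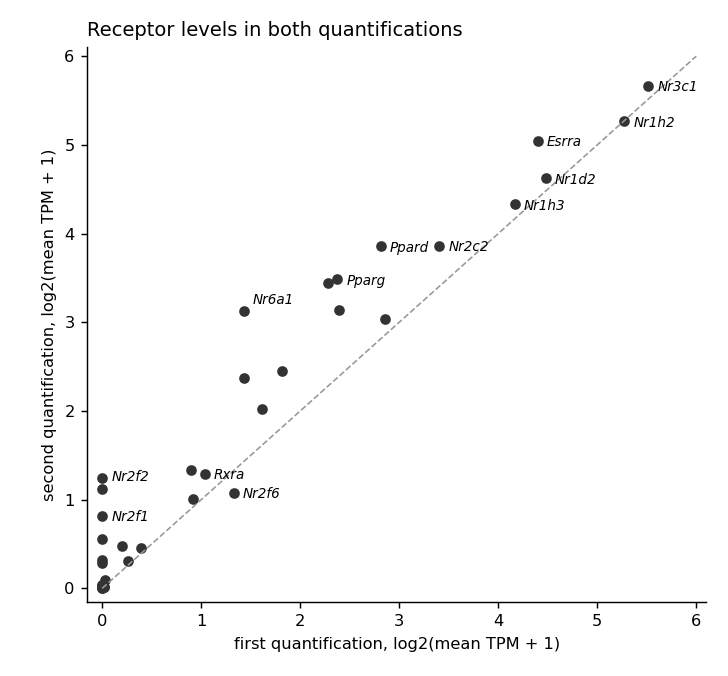
Mean level of each receptor in the second quantification against that in the first, both as log2(mean TPM + 1), with the dashed line of equal values. Nr3c1, Nr1h2, Nr1d2 and Nr1h3 lay near the line, Nr6a1 well above it, and Nr2f2 and Nr2f1 were at 0 in the first and above 0 in the second.

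Coregulators are the proteins that receptors recruit to activate or silence a gene. All 10 corepressor genes and 14 of 16 coactivator genes were expressed. The corepressor Ncor1, the platform of the histone deacetylase complex that unliganded receptors bind, was highest at 29.2 TPM in replicate 1 and 49.7 TPM in replicate 2. Zbtb7a followed with 21.4 and 30.4 TPM and Nrip1, an interactor of agonist-bound receptors, with 9.55 and 21.2 TPM. Of the coactivators, Smarca4, an ATPase of the SWI/SNF remodelling complex, was at 28.3 and 31.2 TPM, the steroid receptor coactivator gene Ncoa3 at 18.9 and 37.2 TPM, and the acetyltransferase gene Crebbp at 20.2 and 31.3 TPM. Ppargc1a, a coactivator of mitochondrial genes, had 0 counts. Median levels were 13.1 TPM for coactivators and 9.81 TPM for corepressors, above the 0.873 TPM of the receptors.

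Steroid receptors are folded and held ready by heat shock chaperones, of which 7 of 9 were expressed. Hspa8 was at 30.7 TPM in replicate 1 and 53.2 TPM in replicate 2, Hsp90ab1 at 35.3 and 43.5 TPM, and Dnaja1 at 15.5 and 57.3 TPM. The immunophilin genes Fkbp4 (0.25 and 1.12 TPM) and Fkbp5 (0.880 and 1.27 TPM) missed the threshold in replicate 1. In the second quantification Fkbp5 passed it, at 2.53 and 7.48 TPM, while Fkbp4 had 0.624 and 1.42 TPM.

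Known target genes were described by level only, since no agonist, antagonist or unstimulated sample was compared. Of 10 LXR targets, 9 were expressed. Abca1, the cholesterol exporter of macrophages, was highest at 239 TPM in replicate 1 and 245 TPM in replicate 2. The apolipoprotein gene Apoe had 35.4 and 35.0 TPM and Srebf1, a regulator of fatty acid synthesis, 29.9 and 30.3 TPM, while Scd2 had 0.510 and 0.530 TPM. Nr1h3 is itself on this list. On TMM-scaled counts 2 of these 10 genes, Apoe (log2 ratio -1.05) and Srebf1 (-1.01), were 2-fold or more lower in replicate 2.

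Of 10 PPAR targets, 7 were expressed. They were led by Plin2, a lipid droplet coat gene, at 42.1 TPM in replicate 1 and 75.9 TPM in replicate 2, Fabp4, a fatty acid carrier gene, at 15.5 and 20.8 TPM, and Lpl, the lipoprotein lipase gene, at 13.6 and 14.2 TPM. Pdk4 and Angptl4 were at or below 0.170 TPM in both replicates. In the second quantification 8 of the 10 were expressed, Pdk4 among them (1.12 and 1.94 TPM), and Angptl4 had 0.365 and 1.45 TPM.

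Of 8 glucocorticoid receptor targets, 5 were expressed, and 6 in the second quantification. Dusp1, a phosphatase of MAP kinases that TLR4 signalling also induces, was at 126 TPM in replicate 1 and 322 TPM in replicate 2. Errfi1, an inhibitor of growth factor receptor signalling, was at 105 and 146 TPM and Sgk1, a kinase gene, at 20.0 and 31.5 TPM. Zbtb16 was under 1 TPM in both replicates, at 0.150 and 0.300 TPM.

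Of 11 genes of retinoic acid response and metabolism, 2 were expressed. These were Tgm2, a transglutaminase gene, at 63.7 TPM in replicate 1 and 73.8 TPM in replicate 2, and Dhrs3, a retinaldehyde reductase gene, at 19.6 and 44.6 TPM. Cyp26a1, Cyp26b1 and Crabp2 were at or below 0.200 TPM, and Stra6, Rarb, Aldh1a1, Aldh1a2 and Crabp1 had 0 counts in both.

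Of 10 clock genes, 6 were expressed. Clock was highest at 13.1 TPM in replicate 1 and 28.3 TPM in replicate 2, followed by Nfil3, a REV-ERB target, at 2.33 and 6.58 TPM and Cry2 at 2.65 and 3.57 TPM. Npas2, Per2 and Dbp were under 1 TPM in both. Over the target and clock lists together, each gene taken once, 28 of 48 were expressed.

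Of 11 nuclear receptor genes outside the 36, the NR4A orphan receptors Nr4a3 (3.27 TPM in replicate 1 and 6.74 TPM in replicate 2) and Nr4a1 (2.91 and 3.81 TPM), known as early response genes, were expressed. Nr4a2 had 0.0900 and 0.630 TPM. Nr0b1, Nr0b2, Nr2e1, Nr2e3, Nr5a1 and Esrrg had 0 counts in the first quantification.

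**Figure D5:**
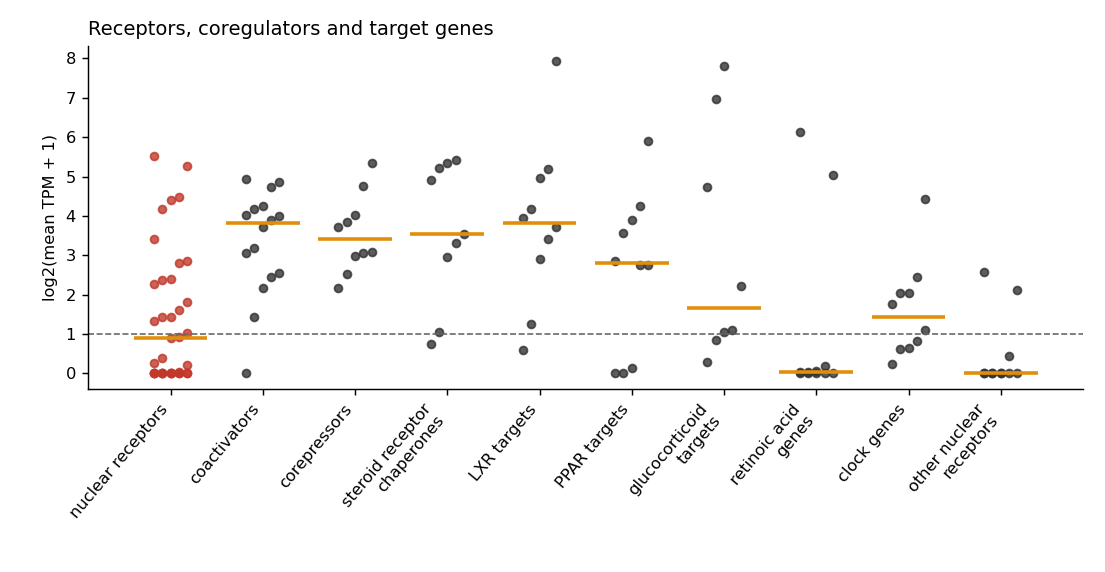
Mean level of each gene as log2(mean TPM + 1) for the 36 receptors (red) and 9 lists of related genes (dark points), with orange bars at list medians and a dashed line at 1 TPM. Coactivators and corepressors lay mostly above the line, whereas retinoic acid genes and other nuclear receptors lay mostly at 0.

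Promoter letters were compared last, since several receptors are known to be under the control of other receptors. Promoters of 250 bases before to 50 bases after the RefSeq start (GRCm38.p6) were used for 34 members. Shown are the 2 with the highest gene levels among these, on the minus strand of chr7:44553916-44554215 for Nr1h2 and of chr14:18239057-18239356 for Nr1d2. Each start used was the nearest to that of the gene's coding model with the highest TPM (at 0 TPM, the first by name). The distance was 753 bases for Nr1h2 and 21 for Nr1d2. It was 884 for Nr2f1, 1043 for Nr2c2, 1227 for Nr6a1 and, at most, 6153 for Nr2f2. Capitals mark AGGTCA, the nuclear receptor half-site, CACGTG, the E-box of clock factors, and CCGGAAG, an ETS factor motif, on either strand.
Nr1h2: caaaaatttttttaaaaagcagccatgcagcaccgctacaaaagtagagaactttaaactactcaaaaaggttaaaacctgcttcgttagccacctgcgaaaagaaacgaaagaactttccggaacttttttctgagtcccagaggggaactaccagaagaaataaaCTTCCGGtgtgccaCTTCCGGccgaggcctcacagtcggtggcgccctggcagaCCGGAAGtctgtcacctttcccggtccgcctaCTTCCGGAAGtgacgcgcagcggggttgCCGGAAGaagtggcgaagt
Nr1d2: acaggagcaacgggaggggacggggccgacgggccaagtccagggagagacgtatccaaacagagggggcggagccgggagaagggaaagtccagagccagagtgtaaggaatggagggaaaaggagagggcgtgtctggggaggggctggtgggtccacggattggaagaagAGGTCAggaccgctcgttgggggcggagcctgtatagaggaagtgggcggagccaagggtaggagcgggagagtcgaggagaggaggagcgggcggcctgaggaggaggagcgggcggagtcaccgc

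The Nr1h2 promoter held 6 matches of CCGGAAG, of which a pair overlap on opposite strands, and was the only one of the 34 with this motif, which occurred in 8.86% of 32851 promoters. The motif was chosen after these letters were seen. The Nr1d2 promoter held 1 AGGTCA at position -77 from the start. AGGTCA was found in 5 of 34 receptor promoters (Thrb, Pparg, Nr1h4, Nr1d2 and Nr5a2), against 16.3% of all promoters, and CACGTG in 3 (Rara, Nr1i3 and Esr2), against 7.15%. The cAMP response element TGACGTCA was found in 1, Nr6a1, against 1.79%. The longer forms that contain AGGTCA, TCAAGGTCA (0.423% of all promoters) and the direct repeat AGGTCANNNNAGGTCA (0.0152%), and the glucocorticoid response element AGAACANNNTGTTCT (0.00913%), were found in 0 of the 34. Such matches are descriptions of letters and not sites of binding. Promoters of the 13 expressed receptors among the 34 had a median GC content of 66.0%, those of the other 21 of 56.0%, and all promoters of 52.7%. All promoters were not divided by expression, so whether this difference is particular to receptors was not tested.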

How the data were processed

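Per the deposited text of each library, the authors made gene and transcript tables of expected counts and TPM from an alignment to mm10 with GENCODE M21 (the first quantification). Per the same text they made transcript tables of estimated counts and TPM from the reads (the second quantification). The aligner, quantifier and strand setting were not given in the sources used here. Rows that name no annotated gene held 0.409% of counts in replicate 1 and 0.277% in replicate 2 and were left out.

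Expression required 1 TPM in both replicates. Ratios used TMM-scaled counts (factors 0.824 and 1.21; edgeR 4.0.16, R 4.3.3) with 0.5 counts added on average, in proportion to depth, for genes whose counts summed to 20 or more. Counts were rounded for the scaling factors and for the exact intervals (SciPy 1.17.1). No model was fitted and no p-value computed, since the series has 1 group. Intervals and floors cover counting error only, because no molecular identifiers are recorded.

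Full values are given for each receptor at 1 TPM or more in either replicate and the next 3. Of each pathway list, but not of the marker lists, the 3 highest genes and those under 1 TPM in both are named, except for a few that are not reported here. The members and lists were chosen with earlier results of these data known. Symbols and positions came from GENCODE M21. Promoters came from RefSeq. Alternatives covered thresholds, scalings, the second quantification and each replicate alone; scaling without the ribosomal DNA locus was added after seeing the data. The scripts were tested on simulated data.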

Additional observations from a re-analysis of the deposited data

How the results depend on the processing

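The number of expressed receptors was 11 to 20 under other TPM minimums, protein-coding rescaling and the second quantification, and 16 to 18 with a single replicate. Under the same alternatives expressed coregulators numbered 23 to 25 and target genes 25 to 35, and with a single replicate 24 to 25 and 28 to 31. In the second quantification the median receptor level was 1.28 TPM, against 1.10 TPM over all protein-coding genes. In the first, the receptor median was 4.32 TPM when TPM was rescaled over protein-coding genes, and 6.03 TPM over the 15 expressed receptors. With a single replicate it was 0.525 to 1.07 TPM. On library size only, 2 receptors were 2-fold or more higher in replicate 2 and 0 lower, and the median log2 ratio was 0.17 in place of -0.39. Leaving the ribosomal DNA locus out of TMM, an alternative chosen after seeing the data, gave 0, 3 and -0.39. Without the minimum of 20 counts, 2 were higher and the median log2 ratio was 0.00, a set that includes 11 receptors at 0. At 100 counts or more, 1 was lower. The second quantification gave 1 higher and 5 lower. The retained intron median was 31.3% on expected counts, 35.0% in the second quantification, 38.6% over 13 receptors with any TPM, and 42.8% to 43.8% with a single replicate. Of 88 recomputed levels of named receptors, 51 moved by less than 1 SD and 37 by more. The levels from a single replicate could not move by more, since with 2 libraries each lies within 1 SD of their mean. The 51 are thus no measure of stability. All 37 came from the second quantification or from rescaling over protein-coding genes. With 2 libraries that SD is itself poorly known. The causes were not tested. No paired analysis was possible because the series has 1 group. Depth limits the receptors under 20 counts, whose ratios are not given.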
